A study of Mus musculus with 2 samples.

Results

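Droplet-based single-nucleus RNAseq of tissue taken 1 day post-fracture from around the break (hematoma and periosteum) was examined here, with the nuclei of the library compared by their content of mitochondrial transcripts. Of 48987 barcodes, 5414 had 200 to 5000 detected genes, less than 2.5% of their UMIs (unique molecular identifiers, each standing for 1 captured transcript) on ribosomal protein genes and less than 5% on genes of the mitochondrial genome (mt- genes). Among these 5414 nuclei, 2405 had less than 0.5% mt- UMIs and pass the limit stated in the study's methods, and 3009 had 0.5% to under 5% and are taken out by it. Both sets are called kept and removed nuclei below. The removed nuclei were thus 55.6% of the nuclei, with an exact Clopper-Pearson 95% interval of 54.2 to 56.9%. The kept nuclei are not the set of nuclei that the study analyzed. The study's methods give a much smaller count for this library, after myogenic nuclei were also taken out. Whether the myogenic nuclei account for the whole gap was not tested.

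The mice were adult C57BL6 animals, males and females mixed per the study's methods, with a tibial fracture and no other agent or allele named. Scrapings of the periosteum were combined with the hematoma, nuclei were sorted by a DNA dye, and tissue of 3 or 4 mice was pooled into 1 library, so that kept and removed nuclei come from the same animals and the same droplet run. The study follows immune cells and skeletal stem/progenitor cells (SSPCs) through bone repair. A library of day 5 after musculoskeletal traumatic injury (MTI), in which the fracture comes with extensive damage to the neighboring soft tissue, was also pooled from 3 or 4 C57BL6 mice and gives the same comparison in other nuclei. With 1 library per condition there was no replicate and no test, nuclei are not replicates, and all intervals cover counting error only.

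The mitochondrial genome encodes subunits of the respiratory chain and is transcribed inside mitochondria, outside the nucleus. A purified nucleus therefore should hold little of this RNA, and mt- transcripts in a nuclear library come from mitochondria or cytoplasm that stay attached to nuclei or from RNA free in the droplet. An upper limit on mt- content is a common filter for nuclei, while cell types differ widely in how many mitochondria they hold.

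The counts of nuclei by mt- content showed no gap near the limit, with 1277 nuclei under 0.25%, 1128 nuclei from 0.25% to under 0.5%, 894 nuclei from 0.5% to under 0.75% and 525 nuclei from 0.75% to under 1%. The limit of 0.5% passed through the middle of the nuclei. Counting error at few mt- UMIs per nucleus could hide a gap, so these counts cannot show that there is none. The library was shallow, with a median of 409 UMIs and 268 genes in kept nuclei and of 366 UMIs and 252 genes in removed nuclei, and 3015 of the nuclei (55.7%) had at most 400 UMIs. In every one of these, the limit came down to a single molecule, since 470 nuclei without an mt- UMI and 663 nuclei with 1 were kept and all those with 2 or more were removed. Among the latter, 592 nuclei had 2 mt- UMIs and 396 had 3. Removal was more frequent at low depth, with 62.4% (60.7 to 64.2%) of nuclei up to 400 UMIs, 48.2% (46.0 to 50.4%) of those over 400 and up to 800 UMIs, and 39.9% (34.7 to 45.3%) of those over 800 UMIs.

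**Figure D1:**
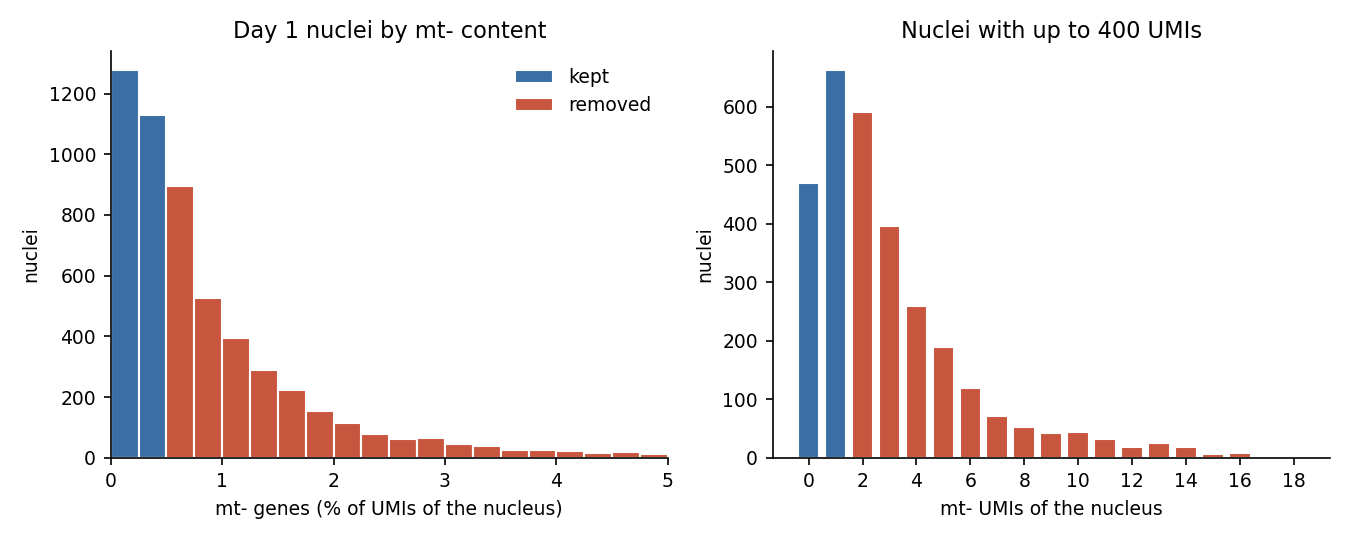
Left, number of day 1 nuclei (vertical axis) by mt- content in steps of 0.25% of UMIs (horizontal axis), kept nuclei in blue and removed nuclei in red; right, number of nuclei with up to 400 UMIs by their number of mt- UMIs. The counts fall from 1128 to 894 nuclei across the limit without a gap, and at up to 400 UMIs the limit separates nuclei with 1 mt- UMI from nuclei with 2.

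The mt- transcripts themselves chose the groups, so their levels are a description. They were 0.198% of all UMIs in kept nuclei and 1.35% in removed nuclei, and 0.902% in the 43464 barcodes with fewer than 200 genes, whose content served as the reference for RNA free in the droplets. The most abundant was mt-Co3, a subunit of cytochrome c oxidase, with 25.2% of the mt- UMIs of kept nuclei, 24.6% of those of removed nuclei and 25.6% of those of barcodes under 200 genes. For mt-Co2, of the same complex, these shares were 16.6%, 21.8% and 19.6%, and for mt-Nd2, a subunit of complex I, 6.35%, 3.92% and 4.78%. A further 108 nuclei had 5% mt- UMIs or more and are in neither group. Empty droplets were not called. Barcodes under 200 genes reached 778 UMIs and nuclei started at 243 UMIs, so nuclei and reference may each hold barcodes of the other kind.

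The library held 9389014 UMIs, of which 1202240 lay in kept nuclei, 1287689 in removed nuclei and 6848386 in barcodes under 200 genes. Its cell barcodes included 33 of the 1446 of the MTI library, 17 of them among the 5414 nuclei. The label gives the tissue as periosteum. Osteoblast genes had 76 UMIs in kept and 115 in removed nuclei, 80.1% of them from Alpl, and Sp7 had 4 and 6. The 16 genes of skeletal muscle fibers had 78612 UMIs in kept and 45063 in removed nuclei, 69.1% of them from Ttn. The study took nuclei of the myogenic lineage out of its own analysis, which was not done here. Levels are UMIs per 1000000 UMIs of a group (CPM), and each ratio is the level in removed over the level in kept nuclei. Where an interval follows a ratio, it is the exact conditional binomial 95% interval. In pooled counts, fewer nuclei of a type and less RNA per nucleus cannot be told apart.

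Removed nuclei held less RNA of muscle fibers and more of macrophages, fibroblasts and inflammatory signals than kept nuclei. Of 4244 genes with at least 100 UMIs over both groups, mt- and ribosomal protein genes left out, 403 were at least 1.5 times as high in removed nuclei (9.5% of those measured) and 160 at least 1.5 times as high in kept nuclei (3.77%). The median ratio was 1.04, with a 5th percentile of 0.690 and a 95th of 1.68. At a ratio of 2, 68 genes were higher in removed nuclei (1.6%) and 5 lower (0.118%). In the following, higher and lower genes are those past a factor of 1.5 in either direction. No test stands behind a call, and an interval is given with many but not all ratios.

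The gene with the highest ratio was Tmem104, a membrane protein of the amino acid transporter family, at 19.1 CPM in kept and 59.8 CPM in removed nuclei, with a ratio of 3.13 (1.94 to 5.22). Elf4, a transcription factor of immune cells, went from 27.4 to 73.0 CPM with a ratio of 2.66 (1.77 to 4.08). Ugdh, which makes the precursor of hyaluronan and other glycosaminoglycans, went from 31.6 to 83.9 CPM with a ratio of 2.65 (1.82 to 3.95). Several of the 10 genes with the highest ratios belong to myeloid cells or to the matrix. Fcer1g, the signaling chain of Fc receptors, had 39 UMIs in kept and 110 in removed nuclei (ratio 2.63, 1.81 to 3.90), and Prkcd, a protein kinase C of myeloid signaling, had 74 and 189 UMIs (ratio 2.38, 1.81 to 3.16). The extracellular matrix genes Ecm1 and Ltbp2, the latter binding to elastic microfibrils, had ratios of 2.53 (1.7 to 3.85) and 2.44 (1.74 to 3.46), and Gsn, which severs actin filaments, had a ratio of 2.53 (1.87 to 3.45). Tnfrsf1b, a receptor of tumor necrosis factor, and Ppp4c, a protein phosphatase, had ratios of 2.57 (1.71 to 3.96) and 2.5 (1.64 to 3.91) and complete the 10.

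Several of the 10 genes with the lowest ratios belong to muscle fibers. Mss51, a muscle protein that is found at mitochondria, had the lowest, with 214 CPM in kept and 98.6 CPM in removed nuclei (ratio 0.461, 0.370 to 0.573). Klhl41 and Trim55, both sarcomere-associated, followed with ratios of 0.474 (0.350 to 0.636) and 0.478 (0.320 to 0.706). Coro6, an actin-binding coronin, Cacna1s, the calcium channel subunit of the T-tubule, Cd46, a complement regulator, and the unnamed gene F830016B08Rik lay between 0.489 and 0.523. So did the muscle fiber genes Ttn, Neb and Myh2, which are described next and complete the 10.

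**Figure D2:**
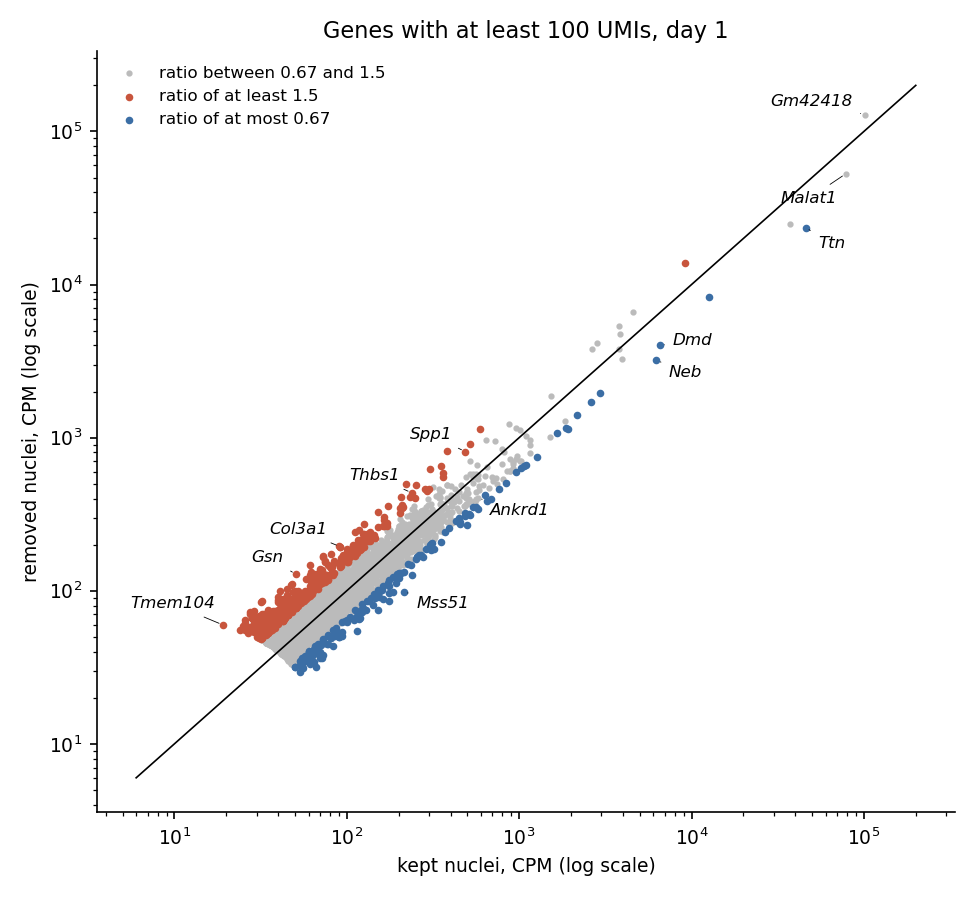
Level of each of the 4244 measured genes in kept nuclei (horizontal axis) and removed nuclei (vertical axis) in CPM, both on log scales; red points are at least 1.5 times as high in removed nuclei, blue points at least 1.5 times as high in kept nuclei, and the line marks equal levels. Ttn, Neb and Dmd lie under the line at the high end, and Spp1, Thbs1 and Col3a1 lie above it.

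The muscle fiber list had the lowest ratio of all 28 lists examined. Its 16 genes together had 65388 CPM in kept nuclei (64932 to 65847) and 34995 CPM in removed nuclei (34673 to 35319.9), a ratio of 0.535 (0.529 to 0.541). Of its 15 members with at least 100 UMIs, 10 were lower, none was higher and all 15 had ratios under 1, with a median ratio of 0.614 beside 1.04 over all genes. Ttn (chromosome 2, 76703980 to 76982547, minus strand, mm10), the molecular spring of the sarcomere, had 55132 UMIs in kept and 30369 in removed nuclei, or 45858 and 23584 CPM, and made up 69.1% of the list. Neb, the ruler of the thin filament, went from 6259 to 3203 CPM (ratio 0.512, 0.492 to 0.532), Dmd, dystrophin, from 6599 to 4004 CPM (ratio 0.607, 0.586 to 0.628) and Ryr1, the calcium release channel, from 1268 to 743 CPM (ratio 0.586, 0.540 to 0.636). The fast myosin heavy chains followed, with Myh2 at 0.495 (0.383 to 0.636), Myh4 at 0.594 and Myh1 at 0.615. Short transcripts of the contractile and metabolic apparatus moved less, with Acta1 at 0.858, the parvalbumin gene Pvalb at 0.835 and creatine kinase Ckm at 0.782. Barcodes under 200 genes had 49730.3 CPM of the list, between both groups, and the part of free RNA in this difference was not tested.

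Genes of the injured fiber were also lower in sum. The 7 muscle stress genes had 1615 CPM in kept and 1257 CPM in removed nuclei (ratio 0.778, 0.728 to 0.831). Beside 3.77% of all genes measured, 1 of 7 was lower. That gene was Fbxo32, a ubiquitin ligase of atrophy, at 389 and 257 CPM (ratio 0.660, 0.572 to 0.762). Ankrd1, a stretch-response gene, went from 576 to 403 CPM (ratio 0.700, 0.624 to 0.786), whereas Trim63, the other atrophy ligase, had a ratio of 0.919 (0.805 to 1.05). Satellite cell and myoblast genes were scarce, with 117 UMIs in kept and 122 in removed nuclei and a ratio of 0.974 (0.749 to 1.27), and no member reached 100 UMIs.

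Macrophage and monocyte genes had 692 UMIs in kept and 1270 in removed nuclei, or 576 CPM (534 to 620.1) and 986 CPM (933 to 1042), a ratio of 1.71 (1.56 to 1.88). The removed nuclei held 64.7% of all UMIs of this list, against 51.7% of UMIs of all genes. Of its 10 members, 6 had at least 100 UMIs, 5 of these were higher and none was lower, with a median ratio of 1.75. Adgre1, which encodes the macrophage antigen F4/80, had the highest ratio of them, 2.28. Mrc1, the mannose receptor, went from 82.3 to 142 CPM (ratio 1.73, 1.34 to 2.23), Arg1, the arginine-degrading arginase 1, from 137 to 231 CPM (ratio 1.69, 1.39 to 2.05) and F13a1, a clotting factor subunit made by macrophages, from 119.8 to 214 CPM (ratio 1.78, 1.45 to 2.20). The receptor gene Csf1r, through which CSF1 supports macrophage survival, had only 34 and 64 UMIs (ratio 1.76, 1.14 to 2.75), and its ligand Csf1 had 56 and 99 (ratio 1.65, 1.18 to 2.33). Cd68, with 4 and 10 UMIs, was too sparse to compare (ratio 2.33, 0.673 to 10.2). Barcodes under 200 genes had 867 CPM of the macrophage list, above kept and below removed nuclei.

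Genes shared by leukocytes moved in the same direction and lymphoid genes did not detectably move in the counts pooled over all nuclei. The pan-immune list went from 808 CPM (758 to 861) to 1239 CPM (1179 to 1301) with a ratio of 1.53 (1.41 to 1.66), and 5 of 8 members were higher and none lower. Ptprc, the leukocyte antigen CD45, had 139 and 239 UMIs (ratio 1.61, 1.30 to 1.99), Dock2, which drives leukocyte migration, had 199 and 343 UMIs (ratio 1.61, 1.35 to 1.93), and Lcp1, an actin bundler, reached 1.46 (1.15 to 1.85). Arhgap15, a Rac regulator, had a ratio of 1.07 (0.892 to 1.29). Neutrophil genes had a ratio of 1.34 (1.17 to 1.54) at 303 and 406 CPM, with Csf3r, the G-CSF receptor, at 1.59 (1.25 to 2.03) and the alarmin gene S100a9 at 1.07 (0.834 to 1.38). Barcodes under 200 genes held more neutrophil RNA, 559 CPM, than either group of nuclei. Lymphoid genes had 346 CPM in kept and 382 CPM in removed nuclei, a ratio of 1.1 whose interval of 0.967 to 1.26 includes 1, with Bach2 at 1.30 (1.02 to 1.64) and the T cell adaptor Skap1 at 0.891 (0.693 to 1.15).

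Stromal genes were higher in removed nuclei. The fibroblast list went from 561 CPM (519 to 605) to 875 CPM (825 to 928) with a ratio of 1.56 (1.42 to 1.72), and of its 5 members with at least 100 UMIs, 3 were higher and none lower. Both chains of type I collagen were among them, with Col1a1 at 72.4 and 169 CPM (ratio 2.34, 1.82 to 3.04) and Col1a2 at 99.0 and 158 CPM (ratio 1.60, 1.27 to 2.02). Fbn1, a microfibril protein, had a ratio of 1.60 (1.21 to 2.11) and the metalloproteinase gene Adam12 one of 1.48 (1.24 to 1.77), while Prrx1, a transcription factor of limb mesenchyme, stayed at 1.01. The study calls an early state of activated SSPCs injury-induced fibrogenic cells (IIFCs), and the 5 genes used to mark it had 198 CPM (174 to 225) in kept and 356 CPM (324 to 389.8) in removed nuclei, a ratio of 1.80 (1.53 to 2.11). Col3a1 (chromosome 1, 45311538 to 45349706, plus strand), the fibrillar collagen of early repair, went from 91.5 to 194 CPM (ratio 2.12, 1.69 to 2.68) and made up 51.7% of this list. Col5a1 had a ratio of 1.74 (1.22 to 2.49), and Col8a1 one of 1.18 (0.822 to 1.7). Markers of uncommitted SSPCs were rare, with 59 and 90 UMIs and a ratio of 1.42 (1.01 to 2.01). Barcodes under 200 genes had 645 CPM of the fibroblast and 216 CPM of the IIFC list, lower than removed nuclei in both.

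Secreted inflammatory factors followed the immune and stromal genes. Their 9 genes had 1290.1 CPM (1227 to 1356) in kept and 2133 CPM (2054 to 2215) in removed nuclei, a ratio of 1.65 (1.55 to 1.76), and of 8 with at least 100 UMIs, 6 were higher and none lower. Spp1 (chromosome 5, 104435118 to 104441050, plus strand), which encodes osteopontin, had 585 UMIs in kept and 1043 in removed nuclei (ratio 1.66, 1.5 to 1.85). Thbs1, the matricellular protein thrombospondin 1, had 287 and 561 UMIs (ratio 1.82, 1.58 to 2.11). The chemokine genes Ccl2, which attracts monocytes, and Cxcl2, which attracts neutrophils, had ratios of 1.89 (1.55 to 2.31) and 1.68 (1.38 to 2.05). Il1b had a ratio of 1.21 and Nampt one of 0.824. Barcodes under 200 genes had 2498 CPM of the list, more than either group of nuclei.

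Long noncoding RNAs that stay in the nucleus were lower in removed nuclei in sum, and housekeeping mRNAs were higher. The list of nuclear-retained long noncoding RNAs went from 82968 CPM (82454 to 83484) to 56542 CPM (56132 to 56955), a ratio of 0.681 (0.675 to 0.688), and lay at 39396 CPM in barcodes under 200 genes. Malat1 (chromosome 19, 5795690 to 5802672, minus strand), a nuclear speckle RNA, was 94.3% of it and had a ratio of 0.674 (0.667 to 0.680). Neat1, the scaffold of paraspeckles, had a ratio of 0.822 (0.788 to 0.856) and Kcnq1ot1 one of 0.790 (0.669 to 0.932). None of the 4 members measured was past 1.5, but all 4 had ratios under 1. Housekeeping genes with mostly cytoplasmic mRNA had 621 CPM (577 to 667) in kept and 971 CPM (918 to 1026) in removed nuclei, a ratio of 1.56 (1.43 to 1.72), with 6 of 7 higher. Among them, the translation factor Eef1a1 had a ratio of 1.61 (1.18 to 2.20), the ferritin subunit Fth1 1.61 (1.16 to 2.26), the actin-binding peptide Tmsb4x 1.68 (1.25 to 2.28) and beta-actin, Actb, 1.30 (1.12 to 1.52). In barcodes under 200 genes the housekeeping list reached 1060.4 CPM.

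The genes Gm42418, AY036118 and Gm26917 overlap copies of ribosomal RNA, so that reads counted for them may stem from ribosomal RNA. They took 108818 CPM in kept, 137435 CPM in removed nuclei and 202929 CPM in barcodes under 200 genes, with a ratio of 1.26 (1.25 to 1.27) between both groups of nuclei. Gm42418 (chromosome 17, 39846958 to 39848788, plus strand) carried 93.5% of this sum. Removed nuclei thus lay between kept nuclei and barcodes under 200 genes for these RNAs and for Malat1, and how much free RNA or attached cytoplasm entered each group was not tested.

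The 18 nuclear-encoded genes of oxidative phosphorylation had 239 CPM (212 to 268) in kept and 294 CPM (265 to 326) in removed nuclei, a ratio of 1.23 (1.05 to 1.44) at 287 and 379 UMIs. Only Atp5a1 of the ATP synthase had at least 100 UMIs, at a ratio of 1.17 (0.810 to 1.7). Genes that replicate and express the mitochondrial genome had a ratio of 0.870 (0.711 to 1.06). Beside 3.77% of all genes measured, 1 of the 2 measured members was lower. It was Ppargc1a, a coactivator of mitochondrial biogenesis, at 67.4 and 41.9 CPM (ratio 0.622, 0.433 to 0.889). Taco1, a mitochondrial translation activator, had 182 CPM in kept and 172 CPM in removed nuclei (ratio 0.942, 0.778 to 1.14). Glycolysis genes had a ratio of 0.969 (0.890 to 1.05), in which Pfkm, the muscle phosphofructokinase, was lower at 0.661 (0.547 to 0.797) and Aldoa, aldolase, stood at 1.30 (1.01 to 1.67). Hypoxia response genes had a ratio of 0.944 (0.850 to 1.05) with Vegfa at 0.785 (0.672 to 0.918). Immediate early and heat shock genes had a ratio of 1.22 (1.09 to 1.37), and 1 of 7 was higher, Fos at 2.18, beside 9.5% of all genes measured.

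Endothelial genes, with 1495 UMIs in kept and 1288 in removed nuclei, had a ratio of 0.804 (0.746 to 0.867), but 76.2% of their UMIs came from Cdh13, a cadherin that is also expressed outside vessels, at 0.705 (0.646 to 0.769), whereas Pecam1 and Flt1 had 1.02 (0.738 to 1.41) and 1.18 (0.865 to 1.62), and without Cdh13 the ratio was 1.22. Osteoclast genes had 11 and 27 UMIs (ratio 2.29, 1.1 to 5.12), of which Ctsk, cathepsin K, gave 5 and 22. Without Ctsk the ratio turned to 0.778. Erythroid genes had 36 and 71 UMIs (ratio 1.84, 1.22 to 2.83) and platelet genes 21 and 39 (ratio 1.73, 0.995 to 3.10). The ratio was 1.41 (1.05 to 1.91) for osteoblast genes, of which Alpl gave 80.1%, and 1.38 (0.742 to 2.61) for chondrocyte genes. It was 1.09 (0.842 to 1.41) for pericyte and smooth muscle genes, 1.17 (0.956 to 1.43) for Schwann cell genes and 1.12 (0.839 to 1.49) for adipocyte genes, all with intervals that include 1. Ntng1, used in place of the study's Ntn1, gave 48.6% of the Schwann cell UMIs, and without it the Schwann cell ratio was 1.47. Without Pparg, which gave 54.0% of the adipocyte UMIs, the adipocyte ratio was 1.87. Without Alpl the osteoblast ratio was 2.02.

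**Figure D3:**
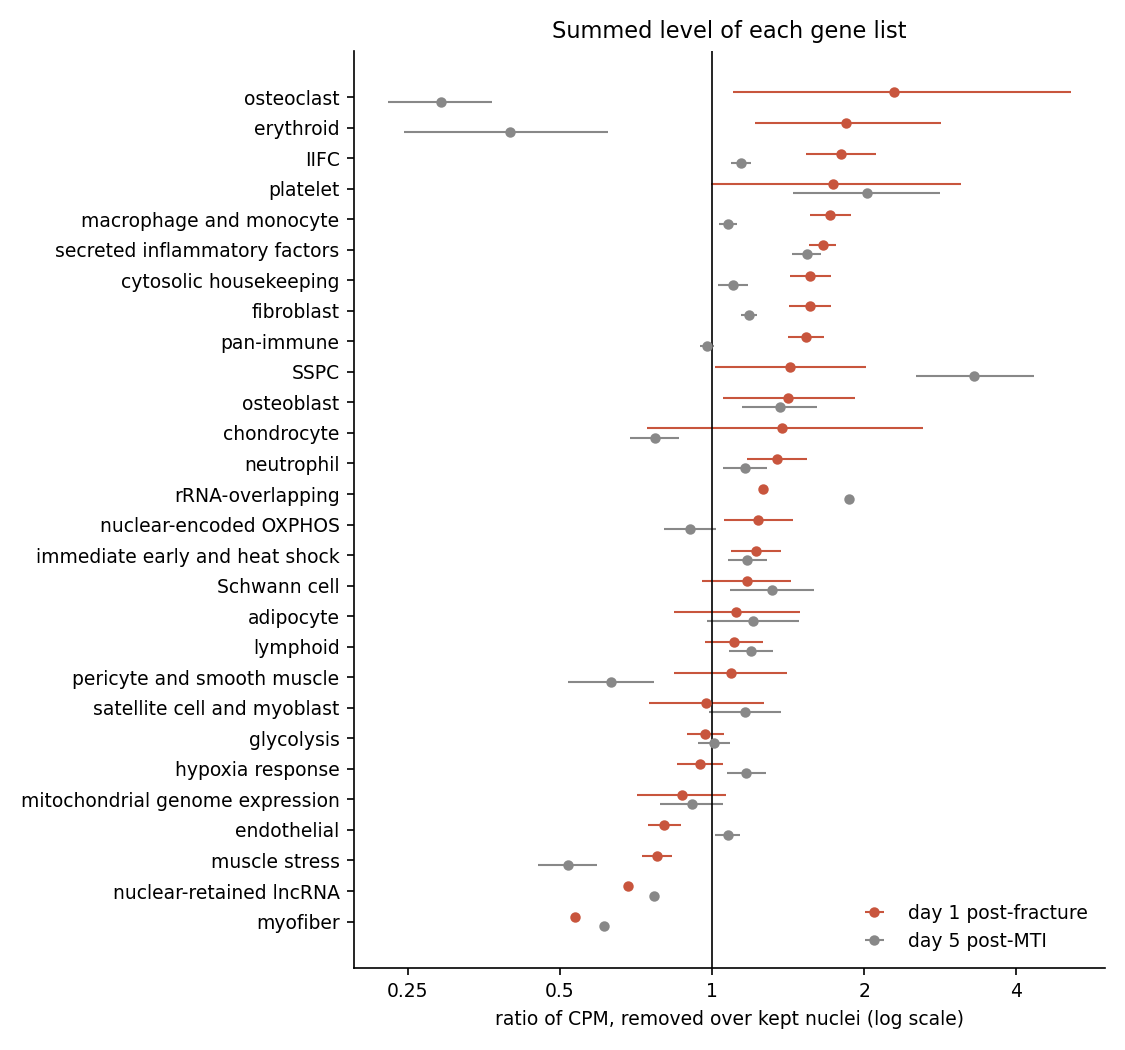
Ratio of the summed level of each gene list in removed over kept nuclei (horizontal axis, log scale) in the day 1 library (red) and the day 5 post-MTI library (gray), with bars for the exact 95% interval of counting. Day 1 values run from 0.535 for muscle fiber genes to 2.29 for osteoclast genes, which turn to 0.778 without Ctsk, and the muscle fiber and long noncoding RNA lists lie under 1 in both libraries. Malat1 makes up 91.6% of the day 5 UMIs of the long noncoding RNA list, whose members have a median ratio of 1.01 there.

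From each step of mt- content to the next, the levels of muscle fiber, macrophage and fibroblast genes lay in the same order, though not every pair of neighbors was apart beyond counting error. Muscle fiber genes went from 76816 CPM in the 792 nuclei without an mt- UMI to 60864 CPM in the other 1613 kept nuclei. They were at 42754 CPM in the 1419 nuclei from 0.5% to under 1%, at 31686 CPM in the 1062 nuclei from 1% to under 2%, at 20454 CPM in the 528 nuclei from 2% to under 5% and at 13358 CPM in the 108 nuclei beyond. Each step was lower than the one before, within the kept nuclei as well as within the removed ones. Over the same 6 steps Malat1 went from 80708 CPM through 77851, 60148, 47318 and 44748 to 37153 CPM. Macrophage and monocyte genes went the other way, from 531 CPM through 593, 800.2, 956 and 1554 to 1888 CPM. Fibroblast genes went from 416 CPM through 618, 787, 838 and 1189.6 to 1332 CPM. Secreted inflammatory factors were level in kept nuclei, at 1276 and 1296 CPM, and reached 1811, 2161 and 2956 CPM in removed nuclei. Ribosomal RNA-overlapping genes had 113513 and 106959 CPM in kept nuclei and 133241, 140710 and 142333 CPM in removed nuclei, with the widest change between neighboring steps at the limit. IIFC genes were highest from 1% to under 2% among removed nuclei, at 455 CPM. Arg1 was higher at each of the 6 steps than at the one before, from 99.7 to 676 CPM, and so was Col1a1, from 55.7 to 378 CPM.

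**Figure D4:**
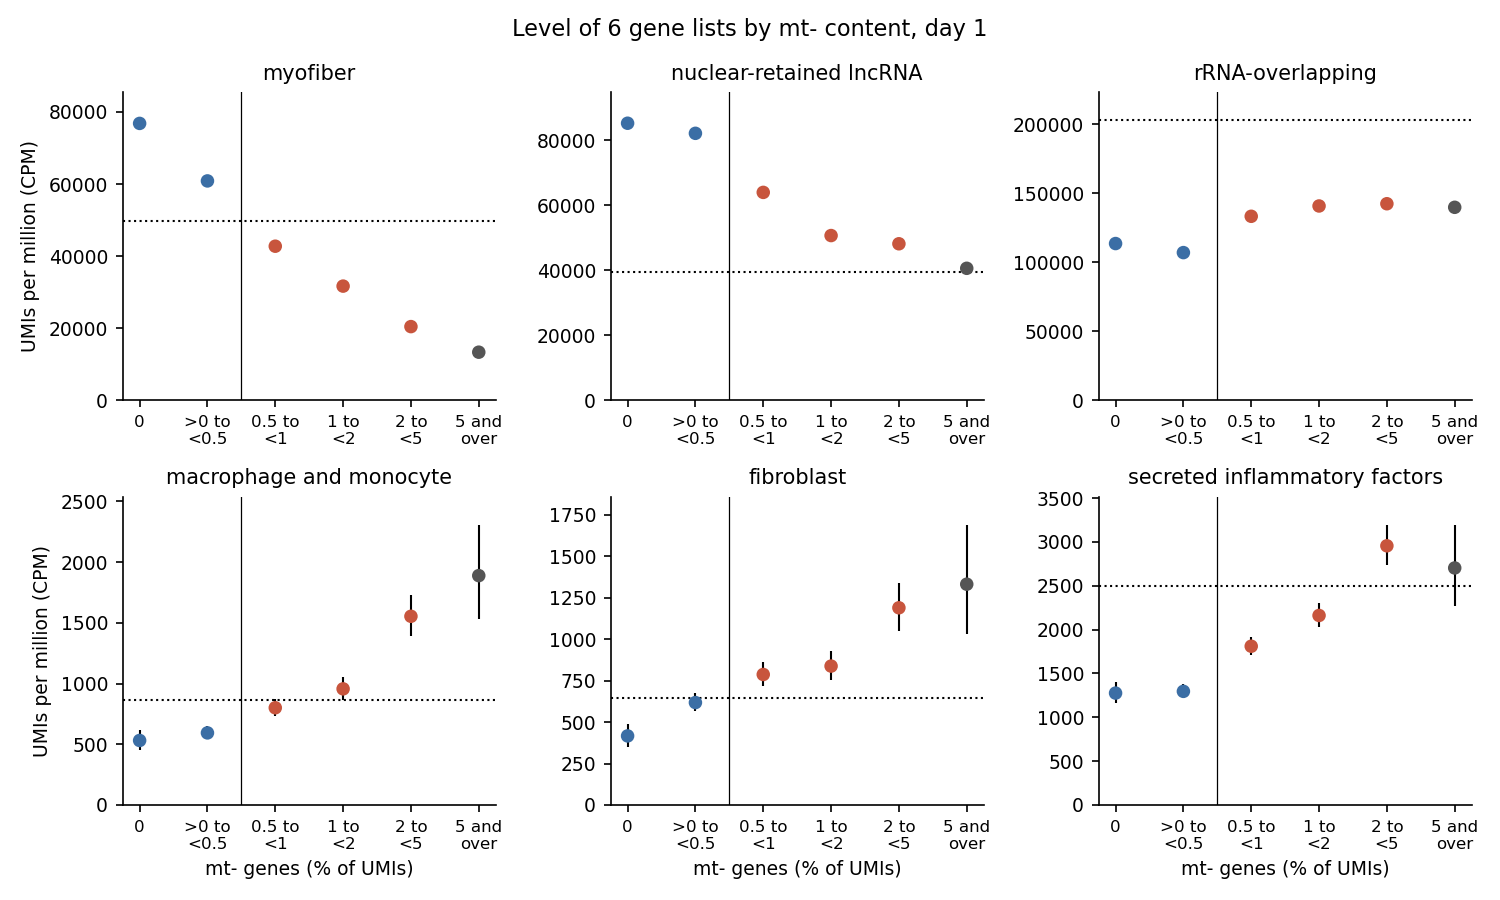
Summed level of 6 gene lists in CPM (vertical axis) in day 1 nuclei grouped by the share of mt- UMIs (horizontal axis); blue points are kept, red points removed nuclei and gray points nuclei at 5% and over, bars are exact Poisson 95% intervals, the vertical line is the limit of 0.5% and the dotted line the level in barcodes under 200 genes. Muscle fiber genes descend from 76816 to 13358 CPM while macrophage genes ascend from 531 to 1888 CPM.

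Next to the limit, some lists differed between the groups and others did not detectably differ. Among nuclei of up to 400 UMIs, those with 1 mt- UMI and those with 2 had 47318 and 39159.6 CPM of muscle fiber genes (ratio 0.828, 0.803 to 0.852) and 632 and 887 CPM of fibroblast genes (ratio 1.40, 1.12 to 1.77). Nuclear-retained RNAs had 63998 and 55982 CPM (ratio 0.875, 0.853 to 0.897). Macrophage and monocyte genes had 764 CPM in each (ratio 0.999, 0.796 to 1.25), pan-immune genes 1101 and 1092 CPM (ratio 0.992, 0.821 to 1.20) and secreted factors 1819.9 and 1779 CPM (ratio 0.977, 0.844 to 1.13). Without regard to depth, the 261 nuclei from 0.4% to under 0.5% and the 369 nuclei from 0.5% to under 0.6% had 59814 and 47737 CPM of muscle fiber genes (ratio 0.798, 0.774 to 0.823) and 594 and 807 CPM of macrophage genes (ratio 1.36, 1.03 to 1.81). Fibroblast genes had a ratio of 1.13 (0.859 to 1.48) there. Muscle stress genes had 0.771 (0.645 to 0.922), immediate early and heat shock genes 0.703 (0.516 to 0.956), and pericyte and smooth muscle genes, at 8 and 29 UMIs, 3.23 (1.44 to 8.19).

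The contrast was widest over 800 UMIs for several lists, but not for all. The muscle fiber ratio was 0.635 (0.622 to 0.647) up to 400 UMIs, 0.543 (0.534 to 0.553) over 400 and up to 800 UMIs, and 0.449 (0.435 to 0.463) over 800 UMIs, where 208 kept and 138 removed nuclei were left. For macrophage and monocyte genes these ratios were 1.34 (1.16 to 1.56), 1.84 (1.60 to 2.11) and 2.31 (1.77 to 3.02). For IIFC genes they were 1.34 (1.03 to 1.74), 1.96 (1.54 to 2.51) and 2.92 (1.99 to 4.33). For fibroblast genes they were 1.37 (1.17 to 1.62), 1.34 (1.16 to 1.55) and 3.27 (2.62 to 4.11), and for endothelial genes 0.910 (0.802 to 1.03), 0.734 (0.654 to 0.823) and 0.858 (0.708 to 1.04). Neutrophil genes did not differ detectably in the shallowest nuclei, at 0.942 (0.775 to 1.15), and reached 2.92 (1.86 to 4.64) over 800 UMIs. In removed nuclei the macrophage level varied little with depth, at 936, 1080.0 and 875 CPM, whereas in kept nuclei it went from 698 through 587 to 379 CPM. Ribosomal RNA-overlapping genes made up 139058 CPM of the shallowest and 63628 CPM of the deepest kept nuclei.

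Genes of 100 kb and over together took a somewhat smaller share of UMIs at higher mt- content. Nuclear RNA is rich in unspliced transcripts, so genes with long introns give many UMIs where intronic reads are counted. Genes with a locus of 100 kb and over took 36.4% of UMIs in kept and 34.2% in removed nuclei, a ratio of 0.940 (0.936 to 0.944), against 33.7% in barcodes under 200 genes. The share was lower from 100 kb to under 300 kb, at 22.8% and 20.5% (ratio 0.897, 0.893 to 0.902), but not at 300 kb and over (1.01, 1.004 to 1.018). Ttn lies in the former class, so this difference is not separate from that of muscle fiber genes. Genes under 10 kb also took a smaller share (ratio 0.964, 0.960 to 0.968), and those from 10 kb to under 100 kb a larger one. Malat1 lies under 10 kb, so the smaller share of that class is not separate from the lower level of Malat1. The median ratio of the 183 measured genes under 10 kb was 1.15. Across the steps of mt- content the share of genes of 100 kb and over went from 37.1% in nuclei without an mt- UMI to 31.9% from 2% to under 5% and 28.8% at 5% and over. Of the 183 measured genes under 10 kb, 24.6% were higher and 10.4% lower, and of the 592 genes of 300 kb and over, 2.20% and 1.01%. The median locus was 52.1 kb for the higher genes, 57.7 kb for the lower genes and 92.5 kb for all genes measured.

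The share of nuclei that the limit took out differed between clusters. The 5414 nuclei were clustered together on 2000 variable genes without mt- and ribosomal protein genes, which gave 15 clusters. Doublets were neither called nor removed. Clusters are given by number, and 3 were called myofiber-like and 1 IIFC-like from their markers; the other 11, with 76.3% of the nuclei, missed at least 1 of the limits on the fold, number and rank of markers that a name needed. The genes that define the clusters overlap the lists above, so the shares restate these differences by nucleus and are not independent of them. Unnamed clusters held 81.0% of the removed nuclei. The largest source was cluster 0, with 551 (18.3%), which lost 62.5% of its 881 nuclei. Cluster 1 gave 373 (12.4%) and lost 62.8% of its 594.

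Of the 932 nuclei of the myofiber-like clusters, 316 were removed, or 33.9% (30.9 to 37.0%), against 55.6% over all nuclei. Cluster 6, led by Mss51 and Asb2, lost 30.8% of 474 nuclei, cluster 7, with Myh1 and Myh2, lost 39.6% of 429, and cluster 12, with Myh2 and the muscle microRNA host Mir133a-1hg, lost 0 of 29, which allows up to 11.9%. Cluster 9, with the stretch-response genes Ankrd2 and Csrp3 but no name, lost 38.5% of 273 nuclei. The myofiber-like clusters together were 25.6% of kept and 10.5% of removed nuclei.

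The IIFC-like cluster 8, led by Tnfaip6, Col3a1, the hyaluronan synthase Has1 and Cxcl5, lost 257 of 353 nuclei, or 72.8% (67.8 to 77.4%), and was 3.99% of kept and 8.54% of removed nuclei. It had all 5 IIFC markers, at 10.1 times their level in the other nuclei, and all 8 fibroblast markers, at 7.97 times. The name therefore does not tell IIFCs from other fibroblasts. The removed part of cluster 8 held 66.8% of all Col3a1 UMIs of removed nuclei. Cluster 3 had 7 of the 10 macrophage and monocyte markers and 3.23 times their level in the other nuclei, but fewer than 3 of them among its 100 leading genes, and is not named for that reason. Its first 10 leading genes included Itgax, Lat2, Mmp19 and Ctsk. It lost 431 of 521 nuclei, or 82.7% (79.2 to 85.9%), the highest share of any cluster with at least 50 nuclei. It was 3.74% of kept and 14.3% of removed nuclei, and held 29.5% of Adgre1, 40.4% of Mrc1 and 50% of Ctsk UMIs of the removed nuclei, the last at 11 UMIs. Of the 10 macrophage and monocyte genes, 7 had shares from 27.2% (Arg1) to 40.4% (Mrc1). The shares of Cx3cr1 (6.19%), Cd68 (10%) and Cd163 (12.5%) were under 14.3%, at 6, 1 and 1 UMIs. Cluster 10, led by the adipocyte secretory and lipid genes Cfd, Scd1 and Fabp4 together with Lrg1 and Hp, lost 145 of 199 nuclei (72.9%, 66.1 to 78.9%). Within it the adipocyte list had 3 UMIs in kept and 24 in removed nuclei (ratio 2.59, 0.786 to 13.4), which does not separate them beyond counting error. Cluster 11, with Grn and Csf2ra, lost 66.0% (56.2 to 75%) of 106 nuclei.

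**Figure D5:**
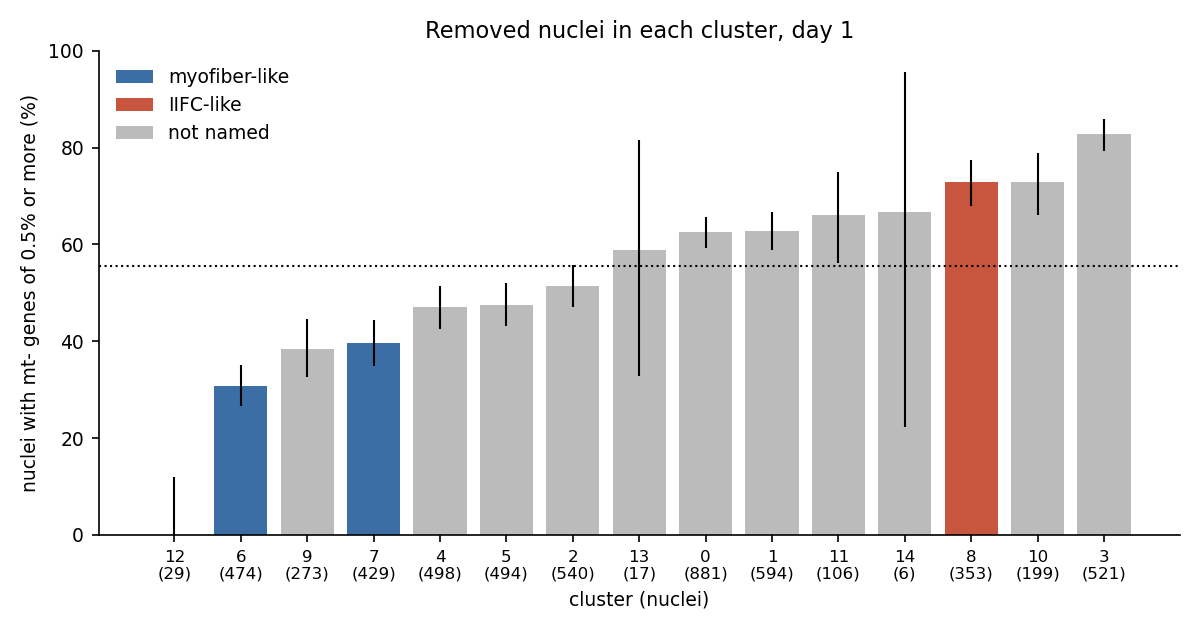
Share of removed nuclei in each of the 15 clusters (vertical axis, percent) in rising order, with the number of nuclei in parentheses; bars give the share, thin vertical lines exact Clopper-Pearson 95% intervals, the dotted line is the share over all nuclei, and colors give the clusters called myofiber-like and IIFC-like. The shares run from 0% in cluster 12 to 82.7% in cluster 3.

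Within single clusters, the ratios of cell type genes were near 1 for some lists and away from it for others. In cluster 3, macrophage genes had 2040.5 CPM in kept and 2177 CPM in removed nuclei (ratio 1.07, 0.822 to 1.40), and in cluster 8 fibroblast genes had 3685 and 3927 CPM (ratio 1.07, 0.895 to 1.27). The IIFC genes of cluster 8, in contrast, had 1165 CPM in kept and 1917 CPM in removed nuclei (ratio 1.65, 1.22 to 2.25). Muscle fiber genes remained lower in removed nuclei of clusters 3 and 8, at 0.599 (0.550 to 0.652) and 0.629 (0.588 to 0.673), and in the myofiber-like clusters 6 and 7 at 0.632 (0.615 to 0.649) and 0.836 (0.810 to 0.863). In the 14 clusters with nuclei of both groups, the muscle fiber ratio was under 1 in 13, and so was that of the nuclear-retained RNAs. The ratio of cytosolic housekeeping genes and that of secreted inflammatory factors were above 1 in all 14, with 6 intervals above 1 each. For macrophage and monocyte genes it was above 1 in 13 clusters, with 3 intervals above 1, and cluster 6 was among these with 316 and 597 CPM (ratio 1.89, 1.30 to 2.73). Muscle stress genes, lower in sum over all nuclei, had ratios above 1 in 7 clusters and under 1 in 7. Every interval of theirs included 1, and the median ratio was 0.995. Lymphoid genes also had ratios above 1 in 7 clusters and under 1 in 7, with 3 intervals above 1 and 0 under.

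In the day 5 post-MTI library, for which the study's mt- limit was 5%, the day 1 split put 442 of 1131 nuclei in the upper group, called removed here as well. These were 39.1% (36.2 to 42%), and another 260 nuclei had 5% mt- UMIs or more. This library was deeper, with a median of 2860 UMIs in kept and 1764.5 UMIs in removed nuclei. All of its barcodes had at least 500 UMIs, whereas those of day 1 started at 72 UMIs, so depths and shares removed are not on like terms. Among day 1 nuclei with at least 500 UMIs, 44.8% were removed. Of 6807 genes measured in the MTI library, 273 were higher (4.01%) and 401 lower (5.89%) in removed nuclei, with a median ratio of 0.945. Day and injury differ together from day 1, so the libraries are set side by side without a test of their difference. Muscle fiber genes had a ratio of 0.612 (0.6 to 0.624), at 15233 and 9319 CPM, Malat1 one of 0.758 (0.751 to 0.766) and secreted inflammatory factors one of 1.54 (1.44 to 1.64), all in the direction of day 1. Malat1 made up 91.6% of the nuclear-retained list, which had a ratio of 0.766 as a whole. Of the 6 measured members of that list, 3 had ratios above 1 and 3 under 1, with a median of 1.01. Arg1 went from 270.0 to 492 CPM (ratio 1.82, 1.65 to 2.02), Spp1 from 288 to 529 CPM (1.83, 1.66 to 2.02) and Col1a1 from 474 to 843 CPM (1.78, 1.65 to 1.92). Col1a1 was the highest of the fibroblast list, which as a whole had a ratio of 1.18 (1.14 to 1.23) and a median of 1.09, with 1 of 7 members higher. The macrophage and monocyte list, in contrast, had a ratio of 1.07 (1.03 to 1.12). Of its 8 measured members, 4 had ratios above 1 and 4 under 1, among the latter Mrc1 at 0.716 (0.645 to 0.793) and Csf1r at 0.545 (0.444 to 0.665). The pan-immune ratio was 0.976 (0.945 to 1.01), the IIFC ratio 1.14 (1.09 to 1.19), and osteoclast genes, with 560 and 84 UMIs, had a ratio of 0.291 (0.229 to 0.367). The day 1 value of 2.29 rests on 11 and 27 UMIs and turned to 0.778 without Ctsk. The nuclear-encoded genes of oxidative phosphorylation had a ratio of 0.905 (0.804 to 1.02).

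Most genes that were higher at day 1 were not past a factor of 1.5 at day 5. Of the 403, 388 were measured in the MTI library, 30 of them (7.73%) were higher and 6 (1.55%) lower there, and the median ratio was 1.01. The 30 are 11.0% of the 273 genes higher in that library. Of the 160 genes lower at day 1, 139 were measured, of which 47 (33.8%) were lower and 4 (2.88%) higher at day 5, with a median ratio of 0.769, and the 47 are 11.7% of the 401. Over all 3675 genes measured in both libraries, 3.70% were higher and 5.17% lower at day 5, and the median was 0.933. Among the 10 genes with the highest ratios at day 1, Ecm1 was at 1.84 (1.33 to 2.55) and Fcer1g at 1.35 (1.03 to 1.76), while Tmem104 was at 1.14 (0.917 to 1.41) and Tnfrsf1b at 0.791 (0.634 to 0.982).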

How the data were processed

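The authors deposited raw UMI count matrices made with Cell Ranger 7.0.1 (mm10 per the labels and the study's methods; 1 label field names a human build, but all gene IDs are of mouse), with intronic and exonic reads counted. No value was normalized before deposit. The limits that the study's methods give for day 1 were applied to both libraries, although the MTI library had limits of its own there (a higher mt- and a lower ribosomal one); the upper mt- limit of 5% is that of the MTI library. The study also removed myogenic nuclei, which were kept here. The kept and removed nuclei and the 28 gene lists were chosen with earlier results of these data known.

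UMIs were summed per group with Python 3.11.15 (numpy 2.4.6, scipy 1.17.1, pandas 2.3.3), scaled to 1000000, and given exact Poisson, Clopper-Pearson or conditional binomial 95% intervals, which cover counting error only. Pooled nuclei of 1 library allow no test between groups. Named genes were the 10 highest and 10 lowest ratios among genes of at least 100 UMIs, up to 4 members of each list with the most UMIs, and 8 genes the study names; other list members and leading genes of clusters were named after their values were seen. Of the genes the rule names, 1 is left out of the text. In place of Cd8 and Ntn1 of the study's marker list, Cd84 and Ntng1 were used, which that list does not name. Tested on simulated data for day 1 (4244 genes), intervals covered 96.0% of true ratios, and 55.9% of genes raised 1.5 times, 36.4% of genes lowered by the same factor and 1.21% of unchanged genes were called. The simulated UMIs were drawn independently of each other, which the intervals also assume. The coverage therefore does not extend to the spread among nuclei of a group. Depth per nucleus ran from 243 to 8338 UMIs.

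Clusters came from Seurat 5.3.0 (R 4.3.3; 2000 variable genes, genes in at least 10 nuclei, 20 components, resolution 1.7). A cluster was named from at least 3 markers, a pooled fold of at least 1.5 and at least 3 markers among its 100 leading genes, limits set after the data were seen. Gene positions and lengths came from GENCODE for mm10, which held 32235 of 32285 genes. Figures were drawn with matplotlib 3.10.9.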

Additional observations from a re-analysis of the deposited data

How the results depend on the processing

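Ratios are given as removed over kept nuclei. With at least 500 UMIs per nucleus, 44.8% were removed. Of 1551 genes measured there, 217 were higher (14.0%, against 9.5% in the main setting) and 141 lower (9.09%, against 3.77%). Ratios were 0.497 for muscle fiber, 1.82 for pan-immune, 2.05 for fibroblast and 0.700 for nuclear-retained RNAs. A split at 1% removed 29.4%, with 251 of 4244 measured genes lower (5.91%, against 3.77% in the main setting). Its ratios were 0.484 for muscle fiber, 0.651 for nuclear-retained RNAs and 0.930 for the share of genes of 100 kb and over. Against kept nuclei without an mt- UMI, these 3 ratios were 0.456, 0.664 and 0.922, and the fibroblast ratio was 2.10. Without mt-, ribosomal protein and Malat1 UMIs the same 3 ratios were 0.527, 0.815 and 0.926. In that setting Malat1 was left out of the nuclear-retained list as well as out of the denominator. With means of per-nucleus shares, muscle fiber stood at 0.556, pan-immune at 1.41 and nuclear-retained RNAs at 0.693. Without clusters 0 and 4, chosen after seeing the data, the ratios were 0.502 for muscle fiber, 1.75 for fibroblast, 0.649 for nuclear-retained RNAs and 0.926 for long genes. The lymphoid ratio was 1.40 in that setting. A gene minimum of 50 UMIs gave 928 higher (12.4%) and 319 lower genes (4.26%) of 7497. With 200 UMIs these were 153 (7.69%) and 99 (4.98%) of 1989. A factor of 2 gave 68 (1.6%) and 5 (0.118%) of 4244. Without the member with the most UMIs, ratios were 0.584 for muscle fiber, 0.827 for nuclear-retained RNAs, 1.22 for endothelial and 0.778 for osteoclast genes, the last 2 turning direction, and chondrocyte, glycolysis and hypoxia genes crossed 1 to 0.934, 1.07 and 1.1. Leaving out nuclei with over 5% ribosomal RNA-overlapping UMIs left 89 kept and 18 removed nuclei and 52 genes. There 16.8% were removed, and 5 genes were higher (9.62%) and 22 lower (42.3%). Ratios were 0.273 for muscle fiber, 2.78 for pan-immune, 1.01 for fibroblast, 0.550 for nuclear-retained RNAs and 3.15 for nuclear-encoded oxidative phosphorylation genes. In that setting ratios turned direction to 0 for IIFC, 1.15 for endothelial, 0.980 for immediate early, 2.34 for muscle stress and 1.05 for long genes, and lymphoid, chondrocyte, hypoxia and satellite cell genes, with main intervals that include 1, crossed it to 0.782, 0, 1.47 and 1.1. Osteoclast genes gave no ratio. With mitochondrial and ribosomal content regressed out, 40.0% of myofiber-like nuclei were removed. The cluster with the highest macrophage fold, among those of at least 50 nuclei, lost 72.2% there. For clusters of nuclei with at least 500 UMIs, these 2 shares were 16.8% and 78.8%. The pan-immune ratio without Cd84, an alternative chosen after seeing the data, was 1.46. Causes of these shifts were not tested. No paired analysis was possible because each condition has 1 library and no ratio comes from a test. At a median of 409 UMIs in kept and 366 in removed nuclei, lists of few UMIs have wide intervals.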

Other observations

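Some abundant genes outside the lists, chosen after their values were seen, followed the same division. Trdn and Xirp2, muscle genes of the calcium release unit and of the actin cytoskeleton, had 1926 and 1656 CPM in kept and 1147 and 1080.2 CPM in removed nuclei, with ratios of 0.596 (0.558 to 0.636) and 0.652 (0.609 to 0.699). Ptprj, a receptor tyrosine phosphatase, had 379 and 820.1 CPM (ratio 2.16, 1.94 to 2.42), Tgfbi, a matrix protein induced by TGF-beta, 305 and 624 CPM (ratio 2.05, 1.81 to 2.32) and Zeb2, a transcription factor, 517 and 911 CPM (ratio 1.76, 1.60 to 1.94). Fn1, fibronectin, had a ratio of 1.64 (1.45 to 1.85).

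The unnamed gene models Gm10800 and Gm10801 together with Gm10719, Gm10717 and Gm21738 had similar ratios to each other, between 0.647 and 0.669, and Gm10800 alone took 37132 CPM in kept and 24860 CPM in removed nuclei. Whether these gene models share reads was not tested, so their single values are uncertain. Cmss1, Lars2 and Camk1d had ratios of 1.52 (1.48 to 1.56), 1.44 (1.39 to 1.49) and 1.41 (1.36 to 1.47), the first at 9140 CPM in kept and 13885 CPM in removed nuclei.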
